A study of Mus with 6 samples.

Results

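Genes of antioxidant defence and detoxification were examined in RNA-sequencing counts of knee cartilage chondrocytes from 12-week-old mice of strain C57BL/6J, with 3 wild-type (WT) samples and 3 samples with conditional loss of Sirt6 (Sirt6 cKO). Sirt6 encodes an NAD-dependent deacetylase. In the Sirt6 cKO mice a floxed Sirt6 gene is removed by a tamoxifen-inducible Cre recombinase under the Col2a1 promoter, and the control RNA came from mice labelled WT. Whether the mice sequenced had received tamoxifen, and whether the WT mice carried the floxed allele, is not given in the sources used here, so effects of Cre, the floxed allele or tamoxifen and of the loss of Sirt6 cannot be told apart. According to the study's methods, mouse chondrocytes were freed from articular cartilage by enzymatic digestion and used at first passage. Genes were taken by name: glutathione transferases, peroxidases and synthesis enzymes, glutaredoxins, peroxiredoxins, thioredoxins and their reductases, superoxide dismutases, catalase, paraoxonases, NADPH oxidases, NRF2 and KEAP1, quinone reductases, heme oxygenases, metallothioneins, ferritins, aldo-keto reductases, aldehyde dehydrogenases, carbonyl reductases and epoxide hydrolases. Counts and labels of the deposited table line up only in part, so only rows with Ensembl gene numbers 1 to 20900 or 25770 to 48200 were used. This gave 44 genes of the 11659 in the table. They comprised 13 genes of the glutathione system, 6 of the thioredoxin system, 5 grouped with superoxide and peroxide (Sod2, Cat, Cyba, Pon2 and Pon3), 7 of NRF2 regulation with quinone, heme and metal defence, and 13 acting on carbonyls and epoxides. Another 27 rows with names of these families, among them Gpx1, Gpx4, Sod1, Sod3, Prdx3, Prdx4, Prdx5, Txnrd2, Gstm1, Fth1 and Ftl1, lie outside those gene numbers and were not analysed here. A further 57 of the 128 protein-coding family genes of the RefSeq annotation were not analysed here, such as Txn1, Gsr, Gclm, Srxn1, Gpx3 and Mt2.

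As background, cells remove peroxides through a pair of parallel thiol systems. In one, glutathione is made from glutamate, cysteine and glycine and serves glutathione peroxidases, transferases and glutaredoxins. In the other, thioredoxin is kept reduced by thioredoxin reductase and serves peroxiredoxins, and both systems draw their electrons from NADPH. The transcription factor NRF2, encoded by Nfe2l2 and held in check by KEAP1, induces many of these enzymes. In cartilage, oxidant load is known to rise with age and in osteoarthritis.

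The targeted gene was checked first. Sirt6 was counted with 10273, 9963 and 10943 raw reads in the WT samples and 1056, 862 and 660 in the Sirt6 cKO samples, a log2 change of -3.69 ± 0.21 (SE, adjusted p = 8e-06, edgeR's quasi-likelihood test). Library totals lay between 25726958 and 30156935 counts. In the rows used, Spearman's rho between exon length and mean count within a row was 0.25 in the first stretch and 0.295 in the second, against at most 0.041 for counts up to 5 rows away. In the 5036 rows outside those gene numbers rho within a row was 0.359. The size of rho within a row therefore does not set the rows used apart from the others. WT replicate 1 stood apart, with a correlation of 0.969 and 0.971 with the other WT libraries, which correlated at 0.993. Its deviation from them was related to exon length across the rows used (rho = -0.472, n = 6615 genes of 1 library), shorter genes being higher. Of the chondrocyte markers, 5 of 16 had a row here. Col11a1, Comp, Sox9 and Ucma rose in Sirt6 cKO samples, Col9a3 did not pass the test with a log2 change of -0.53, and Col2a1 and Acan were not analysed here. Normalized counts, used from here on, are counts scaled to a common library size by edgeR's TMM method. The 5 rows summed to 5739 to 6257 normalized counts in WT and to 11302 to 14160 in Sirt6 cKO samples. The largest part was Sox9, with a mean of 5520 in WT and 8486 in Sirt6 cKO samples. Of 12 synovial fibroblast markers 7 had a row, and their sum lay at 135249 to 137180 in WT and at 355534 to 403657 in Sirt6 cKO samples, with Col1a1, Dcn, Lum and Pdgfra higher and Thy1, Pdpn and Has1 not past the threshold. Most of that sum was Col1a1, with a mean of 116080 in WT and 293000 in Sirt6 cKO samples. Cd68, the 1 leukocyte marker with a row, summed to 44 to 49 and 6 to 50, and for 4 further lists (erythroid, endothelial, bone, fat and muscle) no gene had a row here. None of these marker rows was at 0 in all samples. The part of these markers in the results below was not tested. In bulk RNA, a smaller number of cells expressing a gene and less RNA per cell cannot be told apart.

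Antioxidant genes moved in both directions in Sirt6 cKO chondrocytes, and the decreases were the more common. All 44 genes passed the filter on low counts. At an adjusted p under 0.05, 11 rose and 16 fell with loss of Sirt6, which is 25% and 36.4% of the genes, and 17 did not pass. Among all 11246 genes tested 46.8% passed, 22.5% as higher and 24.3% as lower, and among the 6615 genes of the rows used 24.0% were higher and 25.8% lower, so the higher share lay close to the background and the lower share above it. With the added condition of a fold change over 2 or under 0.5, 5 genes were higher and 6 lower, against 8.72% and 7.15% of all genes. The median log2 fold change was -0.14 for the 44 genes and 0.00 for all genes. The median was below 0 in the thioredoxin and NRF2 groups and above 0 in the carbonyl group, and the glutathione system had genes called in both directions. Samples of the genotypes did not overlap for 32 of the 44 genes, against 60.9% of all genes, and for a single gene an exact two-sided permutation test of 3 samples against 3 cannot give less than p = 0.1.

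**Figure D1:**
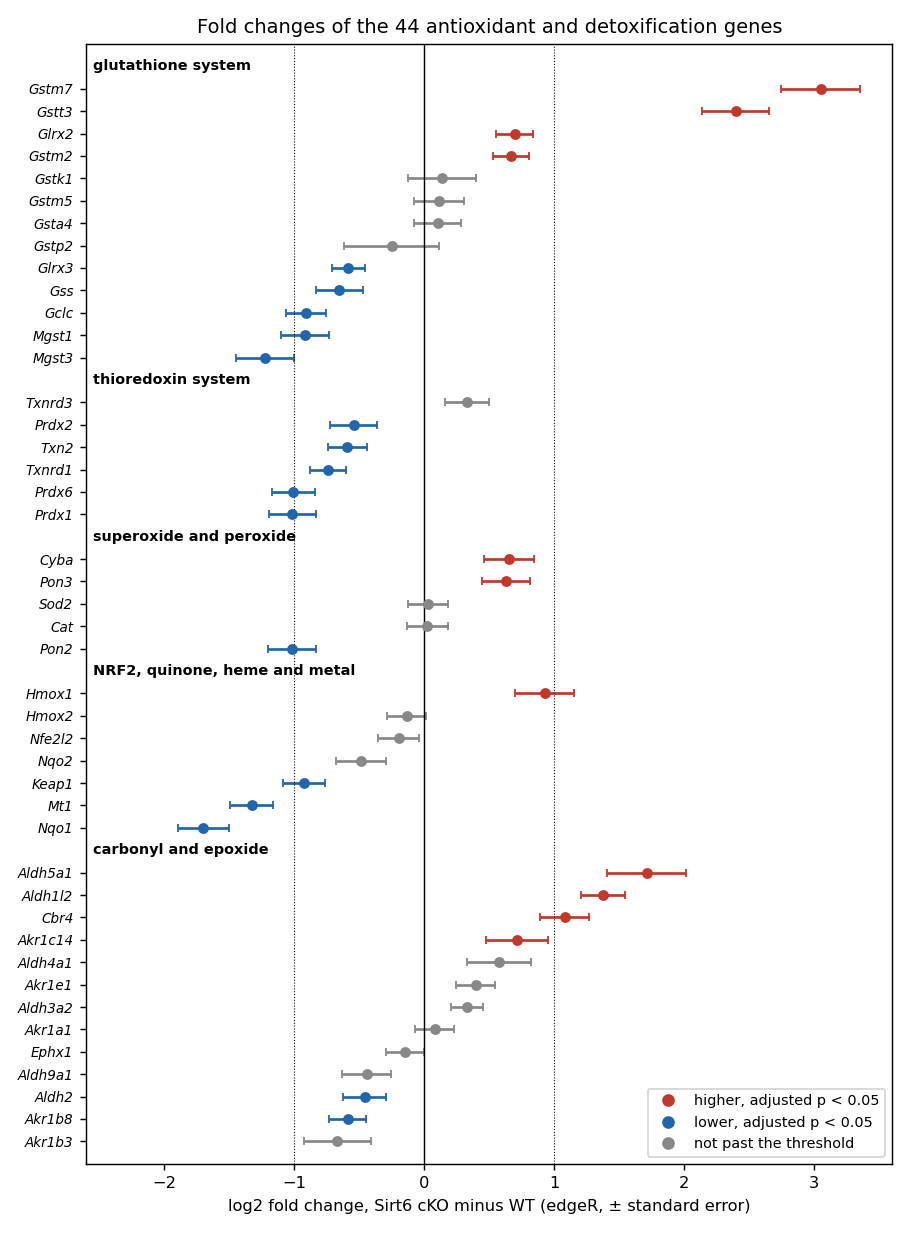
Log2 fold changes (horizontal axis, Sirt6 cKO minus WT, edgeR) with standard errors for the 44 genes, grouped by system; red and blue points passed an adjusted p under 0.05 and dotted lines mark a 2-fold change. Gstm7 and Gstt3 lie farthest to the right at 3.05 and 2.39, Nqo1 farthest to the left at -1.70, and 5 of the 6 thioredoxin genes lie below 0.

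In the glutathione system Gclc and Gss, the genes of glutathione synthesis analysed here, fell, whereas several transferases rose. Gclm was not analysed here. Of the 13 genes 4 were higher (30.8%), 5 lower (38.5%) and 4 not past the threshold, against 22.5% higher and 24.3% lower among all genes, with a median log2 fold change of 0.10. Gclc (ENSMUSG00000032350, chromosome 9 from 77754535 to 77794485) encodes the catalytic subunit of glutamate-cysteine ligase, the rate-limiting enzyme of glutathione synthesis. Its normalized counts were 2772, 2800.1 and 3139 in the WT samples and 1389.8, 1388 and 1858 in the Sirt6 cKO samples. The log2 fold change was -0.91 ± 0.16 (SE, adjusted p = 0.00194, edgeR's quasi-likelihood test), and the highest Sirt6 cKO sample lay well under the lowest WT sample. Gss, glutathione synthetase, which adds glycine in the second step, had 2132, 1437 and 1403 normalized counts in the WT samples and 1002, 1035 and 1124 in the Sirt6 cKO samples. WT replicate 1 was far above the other WT samples, and the log2 fold change of -0.65 ± 0.18 (SE, adjusted p = 0.0178) became -0.43 without it (adjusted p = 0.0067). Gss lost its call without Sirt6 cKO replicate 1 (adjusted p = 0.0692) or replicate 2 (adjusted p = 0.0627).
The membrane-bound transferases analysed, Mgst3 and Mgst1, fell. Mgst3 had 2172, 1451 and 1232 normalized counts in the WT samples and 773, 712 and 591 in the Sirt6 cKO samples, a log2 change of -1.23 ± 0.22 (SE, adjusted p = 0.00248), the largest decrease of this system, and -0.95 without WT replicate 1. Mgst1 went from 296 ± 13.1 to 157 ± 24.6 (mean ± SD, n = 3 each), a log2 change of -0.91 (adjusted p = 0.00426).
Of the 7 soluble transferase genes, Gstm2, Gstm7 and Gstt3 rose and Gsta4, Gstm5, Gstk1 and Gstp2 did not pass. Gstm7 (ENSMUSG00000004035, chromosome 3 from 107926334 to 107931817), a mu class transferase, held 9, 12 and 14 raw counts in the WT samples and 91, 116 and 102 in the Sirt6 cKO samples. This was the largest change of all 44 genes, with a log2 change of 3.05 ± 0.30 (SE, adjusted p = 0.000112), from a low level. Gstt3 (ENSMUSG00000001665, chromosome 10 from 75774115 to 75781414), of the theta class, had 163, 104 and 99.9 normalized counts in the WT samples and 694, 753 and 474 in the Sirt6 cKO samples. This was a change of 2.39 ± 0.26 on the log2 scale (SE, adjusted p = 0.00018), and each Sirt6 cKO sample was above each WT sample. Gstm2 rose more moderately, from 1015, 933 and 854 in WT to 1550.4, 1544 and 1355 in Sirt6 cKO samples, a log2 change of 0.67 (adjusted p = 0.00429). The more abundant Gsta4, which conjugates aldehydes from lipid peroxidation, and Gstm5 had log2 fold changes of 0.10 (adjusted p = 0.66) and 0.11 (adjusted p = 0.652). Without WT replicate 1 these became 0.29 (adjusted p = 0.0611) and 0.32 (adjusted p = 0.066) and still did not pass. Genes of the mu and pi classes have close copies, and how the authors counted reads that fit several copies is not given in the sources used here, so levels of single members are uncertain. Gstp2 held only 39.5, 21.5 and 40 normalized counts in WT samples, and its neighbour Gstp1 was not analysed here.
Per kilobase of exon, the 7 soluble transferase rows summed to 3806, 2744 and 2788 normalized counts in the WT samples and added up to 4218, 4053 and 3351 in Sirt6 cKO samples, so the genotypes overlapped. Within this sum Gsta4 made up 44.4% ± 0.963 in WT and 38.4% ± 0.518 in Sirt6 cKO samples (SD, n = 3), Gstm2 18.1% ± 2.18 and 22.9% ± 1.10, Gstt3 1.48% ± 0.134 and 6.24% ± 0.841, and Gstm7 0.247% ± 0.0632 and 1.63% ± 0.269. The samples of the genotypes did not overlap in any of these 4 shares or in that of Gstm5, and they overlapped in the shares of Gstk1 and Gstp2. Among levels of all genes, 60.9% did not overlap. The shares are parts of the same sum and depend on each other. The share of Gsta4 was thus lower in Sirt6 cKO samples although its mean level per kilobase was 1385 in WT and 1486 in Sirt6 cKO samples.

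**Figure D2:**
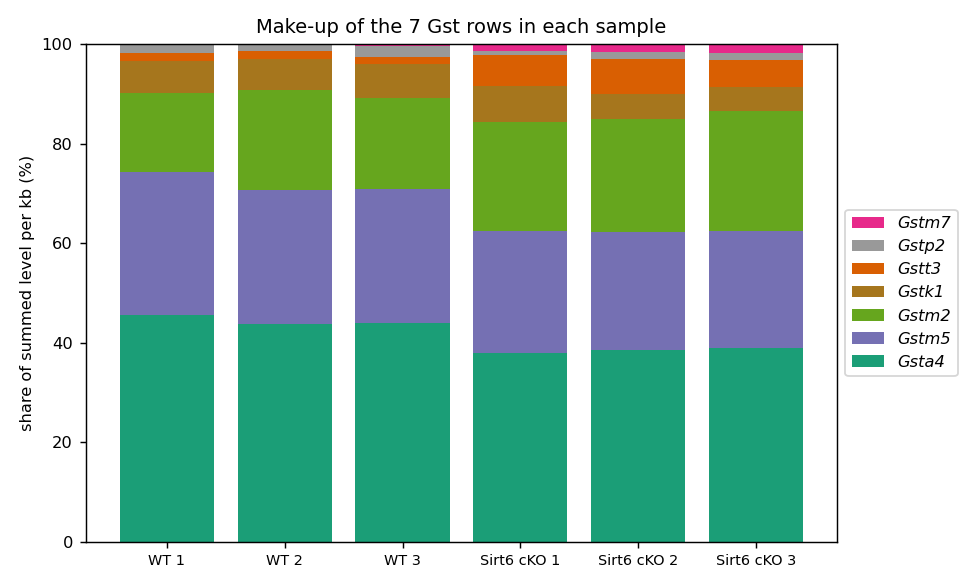
Share (%) of each Gst gene in the summed normalized counts per kilobase of exon of the 7 soluble transferase rows, 1 bar per sample. Gsta4 is the largest part in every bar, and the Gstt3 part is 1.36% to 1.63% in the WT bars and 5.39% to 7.07% in the Sirt6 cKO bars.

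The glutaredoxins, which reduce protein disulfides and glutathione adducts, went opposite ways. Glrx2, the mitochondrial form, had 462, 431 and 441 normalized counts in the WT samples and 743, 654 and 759 in the Sirt6 cKO samples, a log2 change of 0.69 ± 0.14 (SE, adjusted p = 0.00421). Glrx3, a monothiol glutaredoxin of iron-sulfur cluster handling, had 1575, 1453 and 1384 in the WT samples and 949, 934 and 1062 in the Sirt6 cKO samples, a log2 change of -0.58 ± 0.13 (SE, adjusted p = 0.00678). In both genes the samples of the genotypes stood apart.

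Of the 6 thioredoxin system genes analysed, of 17 in the annotation, 5 (83.3%) were lower, against 24.3% of all genes and with 3 lower without Sirt6 cKO replicate 1 or without replicate 2, and the median log2 fold change was -0.67. None was higher by edgeR, which left 0 higher genes also at an unadjusted p under 0.05, nor by DESeq2 or limma-voom. Summed over the 6 genes, the system held 53775, 38829 and 41359 normalized counts in the WT samples and 26971, 25665 and 27018 in the Sirt6 cKO samples, that is 44654 ± 7999 and 26551 ± 768 (SD, n = 3). The peroxiredoxins Prdx1 and Prdx6, which reduce peroxides, fell most. Prdx1 (ENSMUSG00000028691, chromosome 4 from 116685544 to 116700822) had 14219, 9219 and 9918 normalized counts in the WT samples and 5935, 5571 and 4985 in the Sirt6 cKO samples. The gene changed by -1.02 ± 0.18 on the log2 scale (SE, adjusted p = 0.00227, edgeR's quasi-likelihood test), with every Sirt6 cKO sample under every WT sample. Prdx6 (ENSMUSG00000026701, chromosome 1 from 161240112 to 161251219), a peroxiredoxin that takes its electrons from glutathione, had 8425, 5770 and 6127 in the WT samples and 3363, 3323 and 3429 in the Sirt6 cKO samples. The difference was -1.01 ± 0.16 on the log2 scale (SE, adjusted p = 0.00149). The 3 Sirt6 cKO values of Prdx6 lay within 107 counts of each other. Prdx2, a cytosolic peroxiredoxin, had 7639, 5324 and 5231 in the WT samples and 4552, 4366 and 3584 in the Sirt6 cKO samples, a smaller log2 fold change of -0.54 (adjusted p = 0.0358). Prdx2 overlaps Rnaseh2a in the annotation. Its call was lost without any 1 of the 3 Sirt6 cKO samples (adjusted p = 0.0670, 0.0810 and 0.128) and with upper-quartile scaling.
Txnrd1 (ENSMUSG00000020250, chromosome 10 from 82859206 to 82897724), the cytosolic thioredoxin reductase and a selenoprotein, had 13521, 11277 and 12509.9 normalized counts in the WT samples and 7141, 6660.3 and 8529.7 in the Sirt6 cKO samples. Its log2 fold change was -0.74 ± 0.14 (SE, adjusted p = 0.0031). The row overlaps Eid3. Txn2, the mitochondrial thioredoxin, had 8754, 6419.8 and 6607 in the WT samples and 4774, 4578 and 5093 in the Sirt6 cKO samples, a log2 change of -0.59 ± 0.15 (SE, adjusted p = 0.0122), with the call lost without Sirt6 cKO replicate 1 (adjusted p = 0.0520) or replicate 2 (adjusted p = 0.0538). Txnrd3, a thioredoxin and glutathione reductase known from testis, was the exception, with 1217, 819.6 and 967 in the WT samples and 1207, 1167 and 1398 in the Sirt6 cKO samples and a log2 change of 0.33 (adjusted p = 0.145), and of the 15 alternative fits it passed in the one without WT replicate 1 (0.49, adjusted p = 0.0109).
WT replicate 1 was the highest WT sample in 6 of the 6 thioredoxin genes, in 30 of the 44 genes and in 52.2% of the rows used. Without it the 5 decreases remained past the threshold and were smaller, at -0.80 for Prdx1, -0.82 for Prdx6, -0.68 for Txnrd1, -0.44 for Txn2 and -0.34 for Prdx2. Across the 44 genes rho between fold change and exon length was 0.057, and across the 6615 genes of the rows used rho was 0.186; genes are not independent replicates and no p is given.

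**Figure D3:**
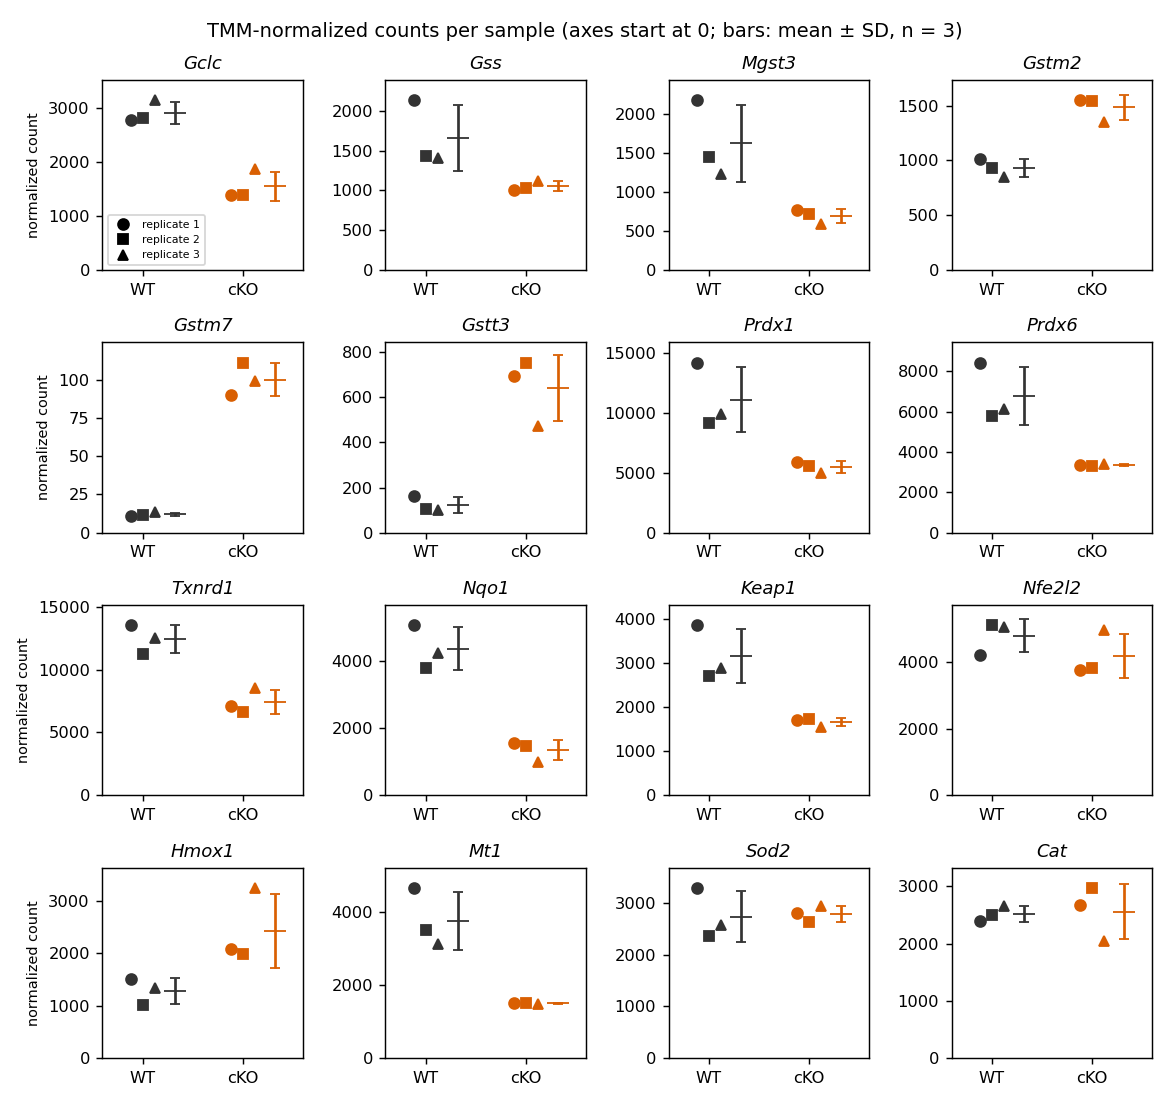
TMM-normalized counts (vertical axes, starting at 0) of 16 genes in the 3 WT and 3 Sirt6 cKO samples, with the replicate number as the symbol and the mean ± SD beside the points. Prdx1, Prdx6, Txnrd1, Gclc, Nqo1, Keap1 and Mt1 lie lower in all Sirt6 cKO samples, Gstm2, Gstm7, Gstt3 and Hmox1 lie higher, and Sod2, Cat and Nfe2l2 overlap.

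Of the NRF2 pathway, the factor itself was not past the threshold and its inhibitor Keap1 fell. In this group of 7 genes 1 was higher (14.3%) and 3 were lower (42.9%), against 22.5% and 24.3% of all genes. Nfe2l2, encoding NRF2, had 4236, 5115 and 5071 normalized counts in the WT samples and 3781, 3829 and 4969.5 in the Sirt6 cKO samples, a log2 change of -0.20 ± 0.16 (SE, adjusted p = 0.32). Keap1 (ENSMUSG00000003308, chromosome 9 from 21229730 to 21239332), which marks NRF2 for degradation, had 3852, 2709 and 2896 in the WT samples and 1703, 1735 and 1547 in the Sirt6 cKO samples. This was a change of -0.92 ± 0.16 on the log2 scale (SE, adjusted p = 0.00214), and the groups stood well apart. Without WT replicate 1, the highest WT sample, Keap1 changed by -0.754.
Nqo1 (ENSMUSG00000003849, chromosome 8 from 107388225 to 107403206), a quinone reductase known as an NRF2 target, showed the largest decrease of the 44 genes. Its normalized counts were 5071, 3790.4 and 4259 in the WT samples and 1555, 1485 and 1002 in the Sirt6 cKO samples, so the Sirt6 cKO mean was 0.308 of the WT mean. The log2 fold change was -1.70 ± 0.20 (SE, adjusted p = 0.000278) and lay between -1.81 and -1.51 in all 15 alternative fits. Hmox1 (ENSMUSG00000005413, chromosome 8 from 75093591 to 75100596), the inducible heme oxygenase and another NRF2 target, rose instead, from 1499.6, 1007 and 1337 in WT to 2075, 1975 and 3246 in Sirt6 cKO samples. Sirt6 cKO replicate 3 was far above the other Sirt6 cKO samples. The log2 fold change was 0.93 ± 0.23 (SE, adjusted p = 0.0104) and 0.68 without that sample (adjusted p = 0.0308). The constitutive Hmox2 had 2902, 2136 and 2205 in the WT samples and 2243, 2215 and 2144 in the Sirt6 cKO samples, with a log2 change of -0.13 (adjusted p = 0.492). Nqo2 did not pass, with a log2 change of -0.49 (adjusted p = 0.0656), but did with the replicate number as a block (adjusted p = 0.0336) and without WT replicate 1 (-0.61, adjusted p = 0.0146). Its change was smaller without WT replicate 2 (-0.31, adjusted p = 0.256) and without Sirt6 cKO replicate 3 (-0.36, adjusted p = 0.199).
Mt1 (ENSMUSG00000031765, chromosome 8 from 94179089 to 94180325), a metallothionein that binds zinc and copper, had 4675, 3510.4 and 3135 normalized counts in the WT samples and 1504, 1521 and 1483 in the Sirt6 cKO samples. The gene changed by -1.33 ± 0.17 on the log2 scale (SE, adjusted p = 0.000409), and the Sirt6 cKO samples were nearly equal at 1503 ± 18.7 (SD, n = 3). Without WT replicate 1, the highest WT sample, Mt1 changed by -1.145.

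Of the 5 genes grouped with superoxide and peroxide 2 were higher (40%) and 1 was lower (20%), against 22.5% and 24.3% of all genes, and the 3 called genes were Cyba, Pon3 and Pon2. Within this group neither Sod2 nor Cat passed the test, and Sod1 and Sod3 were not analysed here. Sod2, the mitochondrial superoxide dismutase, had 3293, 2358 and 2566 normalized counts in the WT samples and 2798, 2630.2 and 2945 in the Sirt6 cKO samples, a log2 change of 0.03 ± 0.15 (SE, adjusted p = 0.896). Cat, catalase, had 2387, 2501 and 2660.3 in the WT samples and 2673, 2973 and 2036 in the Sirt6 cKO samples, a log2 change of 0.03 ± 0.16 (SE, adjusted p = 0.907). In both genes the samples of the genotypes overlapped. Cyba, which encodes the membrane subunit p22phox shared by several NADPH oxidases, was higher, with 243, 206 and 169 in the WT samples and 339, 349 and 282 in the Sirt6 cKO samples and a log2 change of 0.65 ± 0.19 (SE, adjusted p = 0.023). Its call was lost in 4 of the 6 fits that left out 1 sample, where the adjusted p lay between 0.0552 and 0.0843. No Nox gene was among the rows used.
The paraoxonases, hydrolases of lactones and oxidized lipids, moved apart although their genes are neighbours. Pon2 had 738, 1037 and 989.5 normalized counts in the WT samples and 428, 535 and 406 in the Sirt6 cKO samples, a log2 change of -1.01 ± 0.19 (SE, adjusted p = 0.00256). Pon3 had 213, 305 and 242 in the WT samples and 359.8, 395 and 424 in the Sirt6 cKO samples, a log2 change of 0.63 ± 0.18 (SE, adjusted p = 0.0215). Each gene kept its groups apart, while the call of Pon3 was lost in 3 of the 6 fits that left out 1 sample.

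Among the enzymes that act on carbonyls and epoxides, 4 of 13 rose (30.8%), 2 fell (15.4%) and 7 did not pass, against 24.0% higher and 25.8% lower among the rows used, and the median log2 fold change was 0.33. Aldh5a1, Aldh1l2 and Cbr4 rose most. Aldh1l2 (ENSMUSG00000020256, chromosome 10 from 83487450 to 83534140), which oxidizes formyl-tetrahydrofolate in mitochondria and yields NADPH, had 4308, 4881 and 5139.8 normalized counts in the WT samples and 11429.6, 10423 and 15241 in the Sirt6 cKO samples. The difference was 1.37 ± 0.17 on the log2 scale (SE, adjusted p = 0.00035). Aldh5a1, succinate semialdehyde dehydrogenase, had a low level of 63.4, 31.2 and 63.7 in the WT samples and 196, 164 and 158 in the Sirt6 cKO samples and a log2 change of 1.71 ± 0.30 (SE, adjusted p = 0.00222). Cbr4, a mitochondrial carbonyl reductase, had 231, 193 and 158 in the WT samples and 416, 440.4 and 371 in the Sirt6 cKO samples, a log2 change of 1.08 ± 0.19 (SE, adjusted p = 0.00216). In each of these genes every Sirt6 cKO sample lay above every WT sample.
Akr1c14, a hydroxysteroid dehydrogenase, rose from 229 ± 49.6 to 375 ± 92.2 (mean ± SD, n = 3 each), with an adjusted p of 0.0367 that was lost in 4 of the 6 fits that left out 1 sample, the largest being 0.147 without Sirt6 cKO replicate 2. The decreases were those of Akr1b8, an aldose reductase relative, at -0.59 (adjusted p = 0.00988), whose call was lost without Sirt6 cKO replicate 1 (adjusted p = 0.0549), and of Aldh2, which clears acetaldehyde and lipid aldehydes, at -0.46 (adjusted p = 0.0448). Aldh2 passed in 8 of 15 alternative fits and had -0.30 without WT replicate 1. The abundant Akr1a1, an aldehyde reductase, had 21624, 15724 and 15755 in the WT samples and 19646, 18876 and 17612 in the Sirt6 cKO samples, a log2 change of 0.08 (adjusted p = 0.69) that became 0.25 and passed without WT replicate 1 (adjusted p = 0.0304), and Ephx1, the microsomal epoxide hydrolase, had -0.15 (adjusted p = 0.421). The genotypes overlapped in both. Aldh9a1 had a log2 change of -0.44 (adjusted p = 0.0838), passed with the replicate number as a block (adjusted p = 0.0341) and had -0.25 without Sirt6 cKO replicate 3 (adjusted p = 0.227). The remaining Akr1b3, Akr1e1, Aldh3a2 and Aldh4a1 did not pass, with values from -0.67 to 0.58, although Aldh3a2 passed as higher in 7 and Akr1e1 in 4 of the 15 alternative fits.

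Levels of different genes were compared per kilobase of exon, as mean normalized counts. In WT chondrocytes Mt1 had the highest level with 6988, followed by Akr1a1 with 6437. Both were at about the same level in WT replicate 3 (5806 and 5729). Prdx1 with 3654, Txnrd1 with 3639 and Ephx1 with 3493 came next and were not separable, since Prdx1 was above the others in WT replicate 1 (4673 against 3957 and 3990) and Txnrd1 above Prdx1 and Ephx1 in WT replicates 2 and 3. Nqo1 had 2816. In Sirt6 cKO chondrocytes Akr1a1 was first with 6804, and Ephx1 with 3149 and Mt1 with 2783 followed, both at about the same level in Sirt6 cKO replicate 3 (2746 and 2747). Txnrd1 had 2178, Prdx1 1806 and Nqo1 868. In the glutathione system Mgst3 and Gsta4 were the highest in WT, with means of 1475 and 1385 and the opposite order in WT replicate 3 (1123 and 1224). In Sirt6 cKO samples Gsta4, with 1486, was above Mgst3, with 631, in each sample. The rows of 12 genes (Akr1b8, Aldh1l2, Aldh4a1, Aldh5a1, Glrx2, Gss, Gstm5, Hmox2, Nqo2, Prdx1, Prdx2 and Txnrd1) overlap another annotated gene, whose reads may be in their counts. The exon length sums all annotated exons of a gene, which understates genes that use short transcripts.

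**Figure D4:**
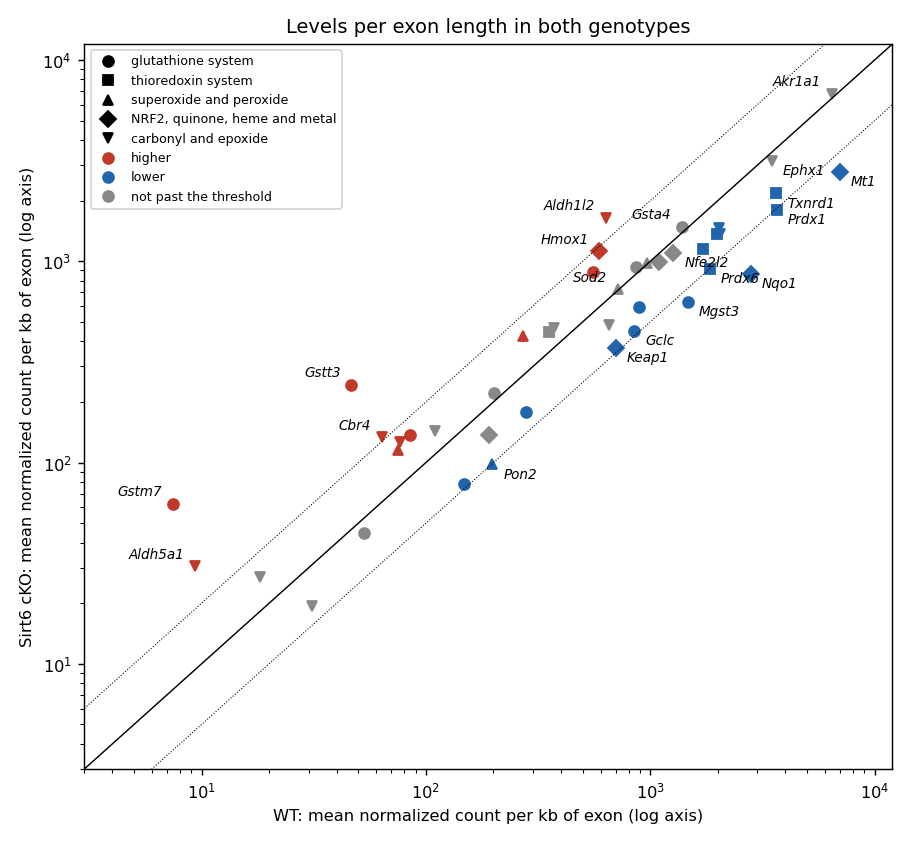
Mean normalized count per kilobase of exon in WT (horizontal, log axis) and Sirt6 cKO (vertical, log axis) for the 44 genes; symbols give the system, colours the call, the solid line equality and the dotted lines a 2-fold difference. Nqo1, Mt1, Prdx1, Prdx6 and Mgst3 are abundant genes near or beyond the lower dotted line, and the strongest rises, Gstm7, Gstt3 and Aldh5a1, start from levels of 7.45, 46.6 and 9.35 in WT.

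Pairs of these genes that lie within 100 kb were looked at for shared direction, with positions as in the table, whose gene starts fit the GRCm38 build. On chromosome 3, Gstm5, Gstm7 and Gstm2 follow each other with 27.6 kb and 49.9 kb between them, and their log2 fold changes were 0.11, 3.05 and 0.67. On chromosome 6, Pon3 and Pon2 lie 7.9 kb apart with 0.63 and -1.01. On chromosome 4, Akr1a1 and Prdx1 lie 33.9 kb apart, with 0.08 and -1.02, and on chromosome 1 Aldh9a1 and Mgst3 lie 3.4 kb apart with -0.44 and -1.23. Also on chromosome 6, Akr1b3 and Akr1b8 lie 36.6 kb apart with -0.67 and -0.59. With Gstm5 and Gstm2, 83 kb apart, these make 7 pairs, of which 1 had both genes called in the same direction, 1 had both called in opposite directions, and 5 had 1 gene called. By sign alone, only Pon3 with Pon2 and Akr1a1 with Prdx1 differed in direction. The pairs among Gstm5, Gstm7 and Gstm2 share genes and are not independent. Among all genes 46.8% were called, and neighbouring pairs over all genes were not counted, so shared direction was not tested.

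Other genes of the same pathways, from lists of genes outside the families above and in the same rows, were counted in the same fit. Of 21 genes for glutathione precursors and breakdown 9 had a row, of which 4 were higher (44.4%), 2 lower (22.2%) and 3 not past the threshold, against 22.5% higher and 24.3% lower among all genes, with a median log2 fold change of 0.52. Cth, cystathionine gamma-lyase, which makes cysteine, held 772, 822 and 834 raw counts in the WT samples and 2361, 1635 and 3341 in the Sirt6 cKO samples, a log2 change of 1.503 ± 0.24 (SE, adjusted p = 0.00151). Slc3a2, the heavy chain of amino acid exchangers, had 9913, 9680 and 9872 raw counts in the WT samples and 20900, 15003 and 33600 in the Sirt6 cKO samples, a log2 change of 1.14 (adjusted p = 0.00859). Slc7a11, the light chain that imports cystine, had 856, 1462 and 1388 raw counts in the WT samples and 1428, 1254 and 2877 in the Sirt6 cKO samples and did not pass, with a log2 change of 0.52 (adjusted p = 0.184). In Cth, Slc3a2, Slc7a11 and Slc1a5, as in Hmox1 and Aldh1l2, Sirt6 cKO replicate 3 held the highest value of all 6 samples, and fits without that sample were not run for the pathway list genes.
The glutamine carrier Slc1a5 rose by 1.16 (adjusted p = 0.00383) and Dpep1, a dipeptidase of glutathione breakdown, by 3.33 on the log2 scale (adjusted p = 0.000193). Dpep1 held only 6, 7 and 14 raw counts in the WT samples and 88, 90 and 112 in the Sirt6 cKO samples. Its fold change thus starts from a low level and its size is uncertain. Abcc4, an export pump, and the peptidase Lap3 fell, with log2 fold changes of -0.67 (adjusted p = 0.0286) and -0.45 (adjusted p = 0.0495, at the threshold).
Of the 8 genes of NADPH supply with a row, 4 (50%) were lower, 1 was higher and 3 (Idh1, Me1 and Mthfd2) did not pass, with a median log2 fold change of -0.53, against 24.3% lower and a median of 0.00 over all genes. In the pentose phosphate pathway, G6pdx, its first enzyme, held 3181, 3048 and 3265 raw counts in the WT samples and 1693, 1956 and 1551 in the Sirt6 cKO samples, a log2 change of -0.97 ± 0.15 (SE, adjusted p = 0.00124). Pgd, phosphogluconate dehydrogenase, had 10410, 8809 and 9256 raw counts in the WT samples and 3864, 4269 and 2797 in the Sirt6 cKO samples, a log2 change of -1.49 ± 0.21 (SE, adjusted p = 0.000657). Nadk, which makes NADP, and Idh2, the mitochondrial isocitrate dehydrogenase, fell too, with log2 fold changes of -0.95 and -0.72, while H6pd, the form of the endoplasmic reticulum, rose by 0.44.
Of 3 NRF2 partners, Cul3, the ubiquitin ligase scaffold that works with KEAP1, rose (log2 fold change 0.77, adjusted p = 0.0278), with WT replicate 1 far under the other WT samples, and Sqstm1 and Mafk had 0.09 and -0.20 and did not pass. Of 9 genes of iron and metal handling 2 were higher and 2 lower (22.2% each), which is near the 22.5% and 24.3% of all genes. Hfe, which limits iron uptake through the transferrin receptor, rose most, with 166, 231 and 207 raw counts in the WT samples and 445, 556 and 454 in the Sirt6 cKO samples and a log2 change of 1.19 ± 0.17 (SE, adjusted p = 0.0007), the groups standing apart. The biliverdin reductases Blvra and Blvrb, which act after heme oxygenase, fell, with log2 fold changes of -0.88 (adjusted p = 0.00164) and -0.63 (adjusted p = 0.0396), whereas Hmox1 rose. The zinc exporter Slc30a1 rose, with a log2 change of 0.59 (adjusted p = 0.024), whereas Mt1 fell, and Mtf1, the metal-sensing factor, had 0.12 and did not pass (adjusted p = 0.481).

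**Figure D5:**
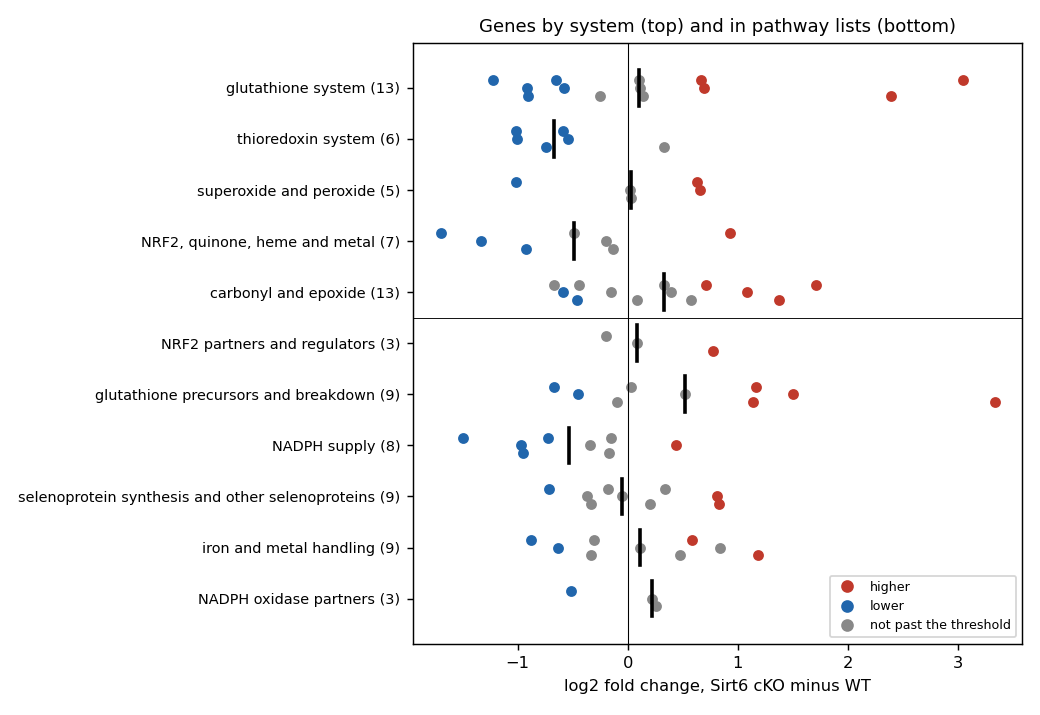
Log2 fold changes (horizontal axis, Sirt6 cKO minus WT) of each gene in the 5 systems (top) and in the other pathway lists (bottom), with the number of genes in brackets, black bars at the medians, and genes past the threshold in red (higher) or blue (lower). The medians lie at -0.67 for the thioredoxin system, -0.53 for NADPH supply and 0.52 for glutathione precursors, and each group holds points on both sides of 0.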

How the data were processed

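RNA was sequenced from 3 WT and 3 Sirt6 cKO samples of mouse chondrocytes, which were grouped by the genotype in the labels. The authors deposited raw read counts per Ensembl gene, not normalized, with exon positions and summed exon length. The submitters' processing notes name cutadapt, HISAT2 2.0.5, StringTie and the build hg19, without roles, although the positions are of mouse. The counter and strand setting are not given in the sources used here. Rows were named by overlap with RefSeq genes of GRCm38.p6 (at least 0.5 of the joint span, 10609 rows). Overlapping genes cannot be told apart without the strand setting.

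Counts of all rows were fitted in edgeR 4.0.16 (R 4.3.3) with TMM, filterByExpr and the quasi-likelihood test, with genotype as the only term. P-values were adjusted by Benjamini-Hochberg over 11246 genes, and 413 were filtered out. Normalized counts are counts divided by the TMM-scaled library size, times the mean of those sizes. Standard errors (SE) were taken as the size of the log2 fold change over the square root of F. The fit was tested on simulated data. It recovered 75 of 100 genes changed by 1 on the log2 scale and 100 of 100 changed by 2. It also called 14 unchanged genes. Smaller changes were not simulated. Depth was 25726958 to 30156935 counts per sample. The study describes the data as from 3 control and 3 knockout mice, but the labels do not tie each sample to a mouse; if samples share one, p-values measure only a spread between samples that may be technical.

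Genes described in full are those past the threshold by over 2-fold at a mean normalized count of 100 or more, system-defining genes, and the highest genes per exon length; lists were written by hand. Of the pathway lists, 1 gene was left out of the counts and is not reported here. Other genes with values, such as Gstm7, which lies under that mean, were named after their values were seen. Members and lists were chosen with earlier results of these data known. Same-numbered samples, a pairing taken from the numbers in the labels alone, deviated together (r of 0.262, 0.104 and 0.136 for numbers 1, 2 and 3), and a fit with that number as a block was added. Alternatives were DESeq2 1.42.0, limma-voom (limma 3.58.1), RLE, upper-quartile and total-count scaling, other filters, each sample left out, and only the rows used. Promoter motifs and sequences were not analysed here.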

Additional observations from a re-analysis of the deposited data

How the results depend on the processing

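The counts of genes past the threshold (11 higher and 16 lower of 44) stayed within 1.5 times under each of the 15 alternative fits, with 8 to 13 higher and 11 to 17 lower when 1 sample was left out. A fold change over 2 or under 0.5 gave 5 higher and 6 lower, of which 2 and 1 were of the glutathione system and 2 lower ones of the thioredoxin system, by construction of the threshold. An adjusted p under 0.01 gave 7 higher genes overall and 3 lower ones of the thioredoxin system. When 1 sample was left out, the thioredoxin system had between 3 and 5 lower and between 0 and 1 higher genes (3 lower without Sirt6 cKO replicate 1 or 2, and Txnrd3 higher without WT replicate 1), and the cause was not tested. The replicate block gave 18 lower genes by adding Nqo2 and Aldh9a1 (adjusted p = 0.0341) and changed no other call. DESeq2 called 13 higher and 16 lower. Upper-quartile scaling moved all genes by 0.08 on the log2 scale and gave 13 higher and 14 lower; 55.4% of all called genes were then higher, against 48% with TMM. With 1 sample left out, the sign turned for 4 genes that did not pass: Gstk1 ranged from -0.141 to 0.334 (negative without Sirt6 cKO replicate 1), Hmox2 from -0.204 to 0.020 (positive without WT replicate 1), Cat from -0.095 to 0.183 (negative without WT replicate 1, Sirt6 cKO replicate 1 or Sirt6 cKO replicate 2) and Sod2 from -0.059 to 0.181 (negative without WT replicate 2 or 3). Gstm7 gave no value with at least 10 counts in every sample. The planned count of promoter motifs was not run, since no sequence was used here. With 3 samples a group, a p above the threshold does not show that a gene kept its level.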

Other observations

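Selenoprotein genes and partners of the NADPH oxidases were counted in the same fit. Of 9 genes of selenoprotein synthesis and other selenoproteins 2 were higher (22.2%), 1 lower (11.1%) and 6 not past the threshold, against 22.5% and 24.3% among all genes, with a median log2 fold change of -0.05. Sephs1, a relative of the selenophosphate synthetases, fell, with 2717, 2972 and 3122 raw counts in the WT samples and 1874, 1825 and 2025 in the Sirt6 cKO samples and a log2 change of -0.71 ± 0.13 (SE, adjusted p = 0.00215, edgeR's quasi-likelihood test). Selenoo, a mitochondrial selenoprotein, rose, with 521, 470 and 460 raw counts in the WT samples and 906, 902 and 963 in the Sirt6 cKO samples and a log2 change of 0.83 ± 0.17 (SE, adjusted p = 0.00452). Secisbp2l was also higher (log2 fold change 0.81, adjusted p = 0.0402), but its WT samples ranged from 1324 to 3588 raw counts, WT replicate 1 being the low one. Of 3 NADPH oxidase partners, Rac1, a small GTPase of the oxidase complex and of the actin cytoskeleton, fell, with 11213, 14695 and 14292 raw counts in the WT samples and 10102, 9444 and 10149 in the Sirt6 cKO samples and a log2 change of -0.52 ± 0.11 (SE, adjusted p = 0.00619), whereas Cybc1 and Poldip2 had 0.25 and 0.22 and did not pass.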
